A study of Mus musculus with 22 samples.

Results

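Bone marrow cells that carry both CD45 and Sca1 were compared with bone marrow cells that carry neither, across all probe sets of 2 arrays. The samples were chosen from their titles, in which the first sign stands for CD45 and the second for Sca1. They comprise 3 RNA samples of the sort named OGCsort +/+, numbered 1, 5 and 6, and 3 of OGCsort -/-, numbered 4, 5 and 8. They are 6 of the 11 RNA samples of the series, and 12 of its 22 arrays, because every sample was hybridized once to MOE430A (chip A) and once to MOE430B (chip B). All were primary mouse bone marrow stained with antibodies against CD45 and Sca1, separated on a cell sorter and given an estimated purity of 90%. The labels used here give no strain, sex, age or treatment, and do not say how many animals the samples came from, so each p-value reflects the spread among these 6 samples and 3 more, which may be partly technical. No group carries a transgene, deletion or drug according to these labels. A further 3 samples that carried CD45 alone (+/-) entered the fit to estimate the spread and are not compared here.

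CD45, the product of Ptprc, is a tyrosine phosphatase on the surface of nucleated white blood cells, and it is lost as marrow precursors commit to the red cell lineage. Sca1 is a small lipid-anchored antigen of blood stem and progenitor cells that is also carried by many mature lymphocytes and some dendritic and myeloid cells. Marrow cells that carry neither marker include the erythroblasts, which build haemoglobin and divide before they expel the nucleus, and cells outside the blood lineage such as stroma, endothelium and bone. In a bulk sample, fewer cells of a type and less RNA per cell cannot be told apart.

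The sorts differed at many genes of chip A. Of 19177 probe sets tested there, 4930 were called at an adjusted p under 0.05 (25.7%), 2754 of them higher in +/+ (14.4%) and 2176 lower (11.3%). Of 21328 probe sets tested on chip B, 1895 were called (8.89%), 1193 higher (5.59%) and 702 lower (3.29%). The adjusted p is from limma, with the Benjamini-Hochberg method applied within each chip. Signals were rescaled here to a trimmed mean of 500 on every array, and folds are on the scale of log2(signal + 32), which understates the change of dim genes. Over all probe sets the median log2 fold change was -0.06 on chip A and -0.14 on chip B, so the arrays were centred close to 0. The median fold of the called probe sets was 3.30 for rises and 3.13 for falls on chip A, and 4.31 and 4.26 on chip B. The falls held more of the extreme differences on chip A, where 19 falls and 3 rises reached 64-fold, while on chip B 2 falls and 5 rises did. The groups did not overlap at 41.8% of the probe sets of chip A and at 28.8% of those of chip B.

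**Figure D1:**
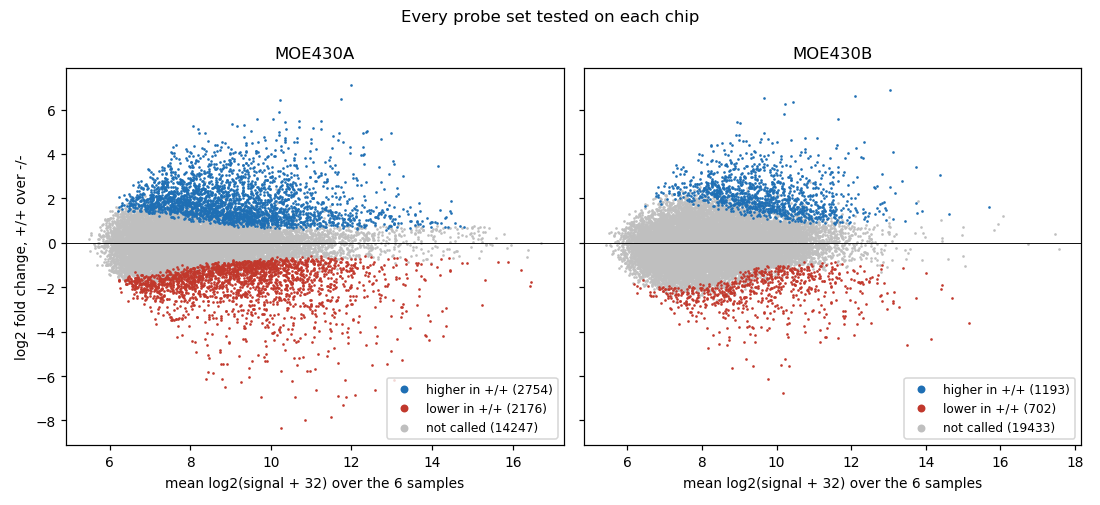
Log2 fold change of +/+ over -/- for every probe set tested, against the mean log2(signal + 32) of the 6 samples, with chip A on the left and chip B on the right. Colours mark the 2754 rises and 2176 falls called on chip A and the 1193 rises and 702 falls on chip B. The falls reach further from 0 at high signal on chip A.

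Chip B had the wider spread and fewer probe sets tied to a known gene. The median SD of log2 values within a group was 0.38 in +/+ and 0.43 in -/- on chip A, and 0.45 in +/+ and 0.61 in -/- on chip B. Probe sets with 1 gene name were called at 25.8% on chip A and 10.6% on chip B, and those with none at 21.2% and 5.53%. With 1 probe set kept per gene, 16997 genes were measured, of which 20.1% were called, 1874 higher and 1544 lower in +/+, with a median log2 fold change of -0.11. Among genes in none of the lists below 10.1% were higher and 8.43% lower. The lists are read against these shares and this median. The number of arrays limits the precision. In simulated data with these spreads 48% of 4-fold and 96% of 16-fold changes were called on chip A, and 32% and 84% on chip B. Only 50 probe sets per fold were changed there, far fewer than were called in the data. The adjusted p depends on how many probe sets change, so these shares do not measure how often real changes were called here.

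Ptprc, the gene of the sorted marker, separated the groups on both chips. On chip A its signal was 10327, 8780 and 12026 in +/+ samples 1, 5 and 6, against 1142, 272 and 149 in -/- samples 4, 5 and 8. The groups did not overlap, and -/- sample 4 was the highest of the -/- samples. The rise of Ptprc was 25.7-fold (limma adjusted p = 9.8e-06, log2 fold change 4.68 with an SE of 0.48). The exact two-sided permutation test gave p = 0.1, the smallest that 3 samples against 3 allow. The chip B probe set, with 3994, 1627 and 2826 in +/+ against 215, 46.8 and 39.7 in -/-, was 23.9-fold higher (adjusted p = 2.9e-05). The chip A fold was 44.0 without -/- sample 4. The gene of Sca1, Ly6a, was not analysed here.

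Some samples stood apart from their group. Samples were compared within their group over the 16997 genes, with 1 probe set per gene. At 204 genes -/- sample 4 lay more than 4-fold above both other -/- samples. At 228 genes -/- sample 8 lay as far below both others. The same counts for the other samples and directions were 36 to 140. The gaps of sample 4 ran both ways: the neutrophil granule gene Ngp had 11121 there, against 578 and 612 in -/- samples 5 and 8, while Gzma, granzyme A of cytotoxic cells, had 10.4 there, against 283 and 278. Genes of the sex chromosomes split both groups. Xist, the RNA that silences an X chromosome in females, had 12.4, 7249 and 8527 in +/+ samples 1, 5 and 6 on 1 of its probe sets of chip A, and 2446, 4886 and 8.88 in -/- samples 4, 5 and 8. The Y-linked gene Eif2s3y on chip A had 559, 3.76 and 3.07 in +/+, and 12.8, 3.99 and 327 in -/-. Neither was called between the groups (adjusted p = 0.80 and 0.96). Gzma, Xist and Eif2s3y were chosen after their values were seen, and the labels used here give no sex. Jchain, the joining chain of secreted immunoglobulins, had 13769 in +/+ sample 1, against 954 and 1004 in +/+ samples 5 and 6. The 3' over 5' Gapdh ratio of chip A, which rises as RNA degrades, was 24.8, 16.8 and 9.14 in +/+ samples 1, 5 and 6, and 11.8, 8.17 and 9.85 in -/- samples 4, 5 and 8. Its part in the differences between the groups was not tested. Values that rest on 1 of these samples are given below with and without it.

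The falls of largest fold on chip A were genes of the red cell lineage. Tmcc2, which encodes a transmembrane protein with coiled coils, had signals of 132, 20.9 and 143 in +/+ samples, against 29070, 34244 and 25220 in -/- samples. Hemgn, a nuclear protein of erythroid precursors, had 193, 151 and 133 in +/+, against 28636, 60661 and 45928 in -/-. Both were low in all +/+ samples and among the bright genes of all -/- samples. The rule that chose the largest rises and falls required no overlap. Tmcc2 was 255-fold lower (log2 fold change -7.99, SE 0.61, adjusted p = 8.4e-07) and Hemgn 227-fold lower (-7.83, SE 0.34, adjusted p = 6.5e-09). Rhd, the Rh blood group antigen, had 282, 245 and 231 in +/+ against 37300, 50328 and 45992 in -/-, and was 156-fold lower (adjusted p = 3.1e-09). Its partner Rhag, which carries the Rh complex to the membrane, had 93.2, 51.9 and 12.8 in +/+ against 4519, 13611 and 14574 in -/-. Because every +/+ array was under 100, Rhag is given as at least 73.3-fold lower (adjusted p = 1.1e-06).

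Further membrane proteins followed them. Slc4a1, the band 3 anion exchanger that anchors the red cell skeleton, had 430, 299 and 396 in +/+ against 35528, 58074 and 48432 in -/-, and was 115-fold lower. Ermap, an erythroblast membrane protein of the immunoglobulin superfamily, was 121-fold lower, with 159 to 404 in +/+ and 23954 to 44573 in -/-. Cldn13, a claudin, was 122-fold lower, and the tetraspanin Tspan33 98.9-fold lower. All 4 had an adjusted p of 3.9e-07 or less. Tspan8, another tetraspanin, had 15.0, 9.92 and 29.9 in +/+ and was at least 33.7-fold lower. Aldh1a1, which oxidises retinaldehyde, was at least 40.7-fold lower, and Tspo2, a translocator protein of erythroid cells, at least 43.0-fold lower. St3gal5, the synthase of the ganglioside GM3, was at least 28.1-fold lower. The 12 largest falls of chip A kept their fold within 1.5 times when any single sample was left out.

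The 12 falls of largest fold on chip B had varied functions, with red cell genes such as Mfsd2b and Add2 among them. Mfsd2b, the exporter of sphingosine-1-phosphate from red cells, had 156, 70.3 and 12.8 in +/+ against 2301, 4131 and 9497 in -/-, and was 47.5-fold lower (log2 fold change -5.57, SE 0.61, adjusted p = 4.3e-05). Myh10, a non-muscle myosin heavy chain, had 61.9, 394 and 141 in +/+ against 4233, 9205 and 17258 in -/-, and was 46.2-fold lower (adjusted p = 3.1e-05). In both, -/- sample 8 was the highest and -/- sample 4 the lowest of the -/- samples, and no +/+ sample reached them. Marchf2, a membrane-bound ubiquitin ligase, had 2903, 1891 and 2167 in +/+ against 43505, 47456 and 88598 in -/-, a 24.5-fold fall (adjusted p = 4.0e-06). Add2, the beta chain of adducin that caps actin under the red cell membrane, was 24.2-fold lower (adjusted p = 0.0041), and at least 15.2-fold lower without +/+ sample 1. The actin nucleator Spire1 was 22.3-fold lower, the formin Fhdc1 22.2-fold lower and the nuclear lamin Lmna 20.7-fold lower.

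The other 5 of the 12 chip B falls were Nxpe2, Apol8, Apol11b, Kcnc1 and Garem1. Nxpe2 had 17.8, 68.9 and 237 in +/+ against 6528, 12040 and 22622 in -/- and was 110-fold lower. The apolipoprotein L gene Apol8 was at least 55.5-fold lower. Apol11b, of the same family, had 835, 87.5 and 12.8 in +/+ against 4459, 5140 and 18126 in -/-, and was 45.0-fold lower (adjusted p = 0.0013). Its 12.8 was in +/+ sample 6 and its 18126 in -/- sample 8, and the fold was 23.3 without the first and 28.9 without the second. The potassium channel gene Kcnc1 was at least 26.6-fold lower, but only 1 of its 4 probe sets was called. Garem1, an adaptor of growth factor receptors, was at least 11.2-fold lower. Nxpe2, Myh10 and Garem1 each had a second probe set that was not called.

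The rise of largest fold on chip A was a gene of antigen presentation. H2-Aa, the alpha chain of the class II molecule I-A, had 56681, 56852 and 33373 in +/+ samples, against 1071, 401 and 52.5 in -/- samples. H2-Ab1, its beta chain, had 9811, 10686 and 13129 in +/+ against 330, 57.2 and 34.9 in -/-. Both were high in every +/+ sample, and -/- sample 4 was the highest of the -/- samples. H2-Aa was 139-fold higher (log2 fold change 7.12, SE 0.63, adjusted p = 3.1e-06) and H2-Ab1 86.3-fold higher (6.43, SE 0.51, adjusted p = 1.1e-06). Lyz1, a lysozyme, had 49932, 29298 and 22522 in +/+ against 6304, 28.7 and 90.0 in -/-, and was 89.0-fold higher (adjusted p = 0.00095). Of the 3 Lyz1 probe sets 2 were called, both with the suffix _x_at. The other, with a plain _at suffix, had 202, 27.1 and 79.0 in +/+ and 15.0, 244 and 41.2 in -/-. It was not called (log2 fold change 0.23, limma adjusted p = 0.84). Whether the called probe sets also read other genes was not tested.

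Ctss, a cathepsin that trims the class II invariant chain, had 15347, 14460 and 18629 in +/+ against 1749, 355 and 35.9 in -/-, and was 44.6-fold higher (adjusted p = 0.00018). Coro1a, a leukocyte coronin that binds actin, was 59.7-fold higher, and Cyba, the p22 chain of the phagocyte oxidase, 47.2-fold. Coro1a rose on all 3 of its probe sets, by 2.64 to 5.90 on the log2 scale. Cd52, a small surface antigen of lymphocytes and monocytes, had 11874, 10425 and 11367 in +/+ against 571, 128 and 128 in -/-, a 45.1-fold rise (adjusted p = 1.5e-06). Mpeg1, the pore-forming perforin-2 of macrophages, was 42.9-fold higher. Ccr9, the receptor for the chemokine CCL25, had 1641, 4851 and 4436 in +/+ and was under 100 in all -/- samples, so it was at least 25.1-fold higher. Klk1, a kallikrein protease, was 39.1-fold higher, Grn, the precursor of the granulins, 38.1-fold higher, and Ms4a4b, a tetraspan protein of T cells, at least 12.4-fold higher.

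These rises depended on the level in the -/- samples. Without -/- sample 4 the fold of H2-Aa was 249, that of Ctss 99.2 and that of Cd52 70.1, and those of Lyz1 and Mpeg1 became at least 243 and at least 64.7. Without -/- sample 8 the fold was 68.9 for H2-Aa, 51.7 for Lyz1, 31.2 for Coro1a, 26.1 for Cyba and 19.4 for Ctss, and without -/- sample 5 that of Lyz1 was 36.5. All of them kept an adjusted p under 0.05 with any single sample left out.

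On chip B the largest rises were again led by class II genes. H2-Aa had 110410, 76288 and 93837 in +/+ against 1710, 599 and 392 in -/-, and was 119-fold higher there (adjusted p = 8.8e-07). H2-DMb2, a chain of the DM molecule that loads peptide onto class II, had 16893, 13217 and 8778 in +/+ against 140, 198 and 59.8 in -/-, an 81.6-fold rise (log2 fold change 6.35, SE 0.36, adjusted p = 3.1e-07). The groups were far apart on these probe sets, but the H2-DMb2 probe set of chip A had 152 to 499 in +/+ and 341 to 524 in -/- and was not called (log2 fold change -0.44, adjusted p = 0.46). H2-Ob, a chain of the DO molecule that restrains DM, was 26.4-fold higher, and 39.9-fold without -/- sample 4. Ctsh, a lysosomal aminopeptidase, had 17729, 24592 and 24727 in +/+ against 823, 330 and 296 in -/-, and was 47.4-fold higher (adjusted p = 8.8e-07).

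Sting1, the sensor of cyclic dinucleotides, had 12118, 10770 and 8802 in +/+ against 605, 62.7 and 10.5 in -/-, and was 76.7-fold higher (adjusted p = 3.7e-05). Cybb, the catalytic gp91 chain of the phagocyte oxidase, was 56.4-fold higher on chip B, and its chip A probe set 3.52-fold higher. Nfkbie, an inhibitor of NF-kappaB, was 43.2-fold higher, and Rassf4, a Ras-association protein, at least 25.6-fold. The integrin chain Itgb3 had 2573, 2671 and 2969 in +/+ and was under 100 in all -/- samples, at least a 20.9-fold rise. Eml4, a microtubule-binding protein, was 25.6-fold higher. The fold was 42.8 for Sting1 without -/- sample 8, and at least 24.7 for Nfkbie without -/- sample 4.

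**Figure D2:**
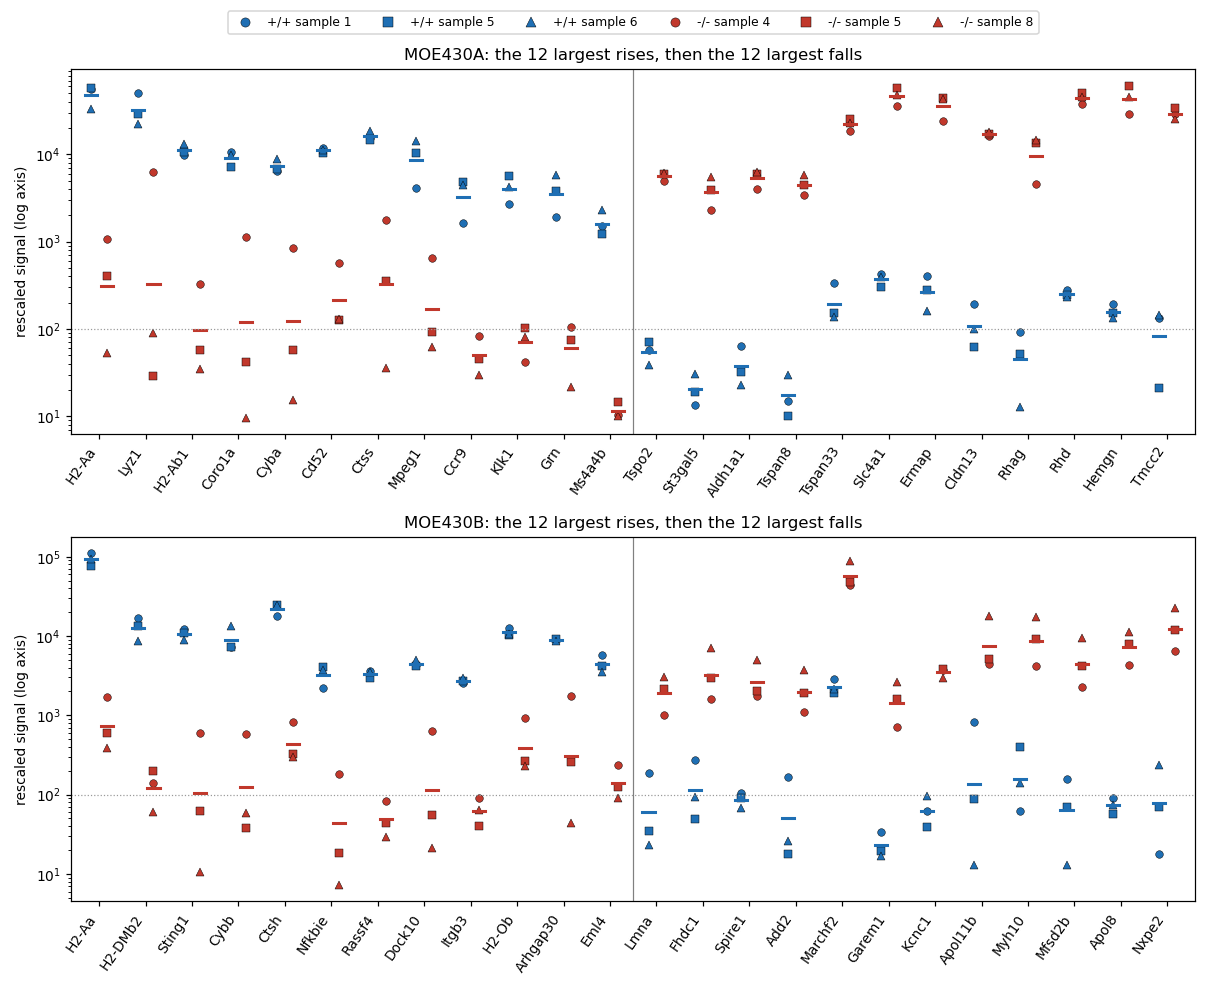
Rescaled signal on a log axis of the 12 largest rises and then the 12 largest falls of chip A (upper panel) and chip B (lower panel), 1 point per sample, with +/+ samples 1, 5 and 6 drawn left of -/- samples 4, 5 and 8. The dotted line is a signal of 100. The genes were chosen to have no overlap between the groups, so its absence is no result. The rises show more spread among the -/- samples than the falls of chip A do.

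Promoters are shown for 6 of these genes, because the data bear on groups of genes that moved together: Hemgn, Rhd and Rhag, which fell, and H2-Aa, Lyz1 and Cyba, which rose. They are the first 3 falls and 3 rises of chip A that had a single promoter in the RefSeq table (GRCm38.p6), each from 250 bases before to 50 after the start of the gene, 5' to 3' on the gene's strand. Capitals mark matches, on either strand, to GATAA, the letters bound by GATA factors such as Gata1; CACCC, bound by Krüppel-like factors such as Klf1; CCAAT, the letters of the Y box; and AGCAACA, a core of the X box of class II promoters. A match on the opposite strand appears as its reverse complement.
Hemgn, chr4:46404134-46404433, minus strand: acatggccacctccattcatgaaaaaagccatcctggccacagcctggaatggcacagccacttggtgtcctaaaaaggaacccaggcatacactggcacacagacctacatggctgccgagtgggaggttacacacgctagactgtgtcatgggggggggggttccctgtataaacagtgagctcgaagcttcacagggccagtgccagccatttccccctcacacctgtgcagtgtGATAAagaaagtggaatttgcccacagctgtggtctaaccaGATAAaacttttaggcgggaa
Rhd, chr4:134864286-134864585, plus strand: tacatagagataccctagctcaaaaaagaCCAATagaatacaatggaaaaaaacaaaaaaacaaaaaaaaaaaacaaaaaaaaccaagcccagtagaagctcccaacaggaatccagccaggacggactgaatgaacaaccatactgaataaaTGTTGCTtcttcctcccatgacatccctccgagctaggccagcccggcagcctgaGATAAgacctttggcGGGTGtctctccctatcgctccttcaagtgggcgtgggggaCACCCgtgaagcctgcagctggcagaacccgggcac
Rhag, chr17:40810899-40811198, plus strand: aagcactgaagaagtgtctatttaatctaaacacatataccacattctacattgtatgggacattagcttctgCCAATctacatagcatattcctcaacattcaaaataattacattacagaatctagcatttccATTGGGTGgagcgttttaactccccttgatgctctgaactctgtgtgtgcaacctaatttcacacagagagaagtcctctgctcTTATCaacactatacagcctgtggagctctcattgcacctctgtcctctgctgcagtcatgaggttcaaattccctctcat
H2-Aa, chr17:34287774-34288073, minus strand: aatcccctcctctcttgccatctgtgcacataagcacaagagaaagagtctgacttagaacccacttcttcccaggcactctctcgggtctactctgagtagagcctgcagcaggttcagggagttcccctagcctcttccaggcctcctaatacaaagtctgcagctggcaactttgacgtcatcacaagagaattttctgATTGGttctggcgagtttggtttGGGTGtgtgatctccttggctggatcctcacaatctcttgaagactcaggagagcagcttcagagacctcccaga
Lyz1, chr10:117292819-117293118, minus strand: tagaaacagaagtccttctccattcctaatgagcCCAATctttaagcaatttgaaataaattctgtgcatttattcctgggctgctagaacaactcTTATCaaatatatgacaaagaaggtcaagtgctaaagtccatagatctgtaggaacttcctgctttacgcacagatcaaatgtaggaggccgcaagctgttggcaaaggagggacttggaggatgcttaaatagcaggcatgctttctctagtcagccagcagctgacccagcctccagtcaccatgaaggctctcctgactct
Cyba, chr8:122432891-122433190, minus strand: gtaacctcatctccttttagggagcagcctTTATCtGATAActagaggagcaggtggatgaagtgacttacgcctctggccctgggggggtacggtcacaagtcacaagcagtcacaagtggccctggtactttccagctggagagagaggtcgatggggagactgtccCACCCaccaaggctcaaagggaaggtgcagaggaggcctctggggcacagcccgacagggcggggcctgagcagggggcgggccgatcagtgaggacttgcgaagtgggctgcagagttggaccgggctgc
Hemgn held 2 GATAA matches, and Rhd and Rhag 1 each, the one of Rhd 42 bases before the start. Rhd also held 2 CACCC matches, 1 CCAAT and 1 AGCAACA. Rhag held 1 CACCC, which overlapped 1 of its 2 CCAAT matches. H2-Aa held 1 CCAAT match 48 bases before its start and 1 CACCC match. Lyz1 held 1 GATAA and 1 CCAAT, and Cyba 2 GATAA and 1 CACCC. The letters are common: of 32851 RefSeq promoters of this length, 25.4% held GATAA, 57.5% CACCC, 37.4% CCAAT and 5.35% AGCAACA. The GATA letters were held by 15.7% of the promoters of genes that rose and 19.2% of those that fell, against 18.8% of those of all genes tested. The Krüppel-like letters were held by 64.2% of those of genes that rose, 63.3% of those that fell and 63.2% of all tested. For the Y box letters the shares were 33.3% of genes that rose, 41.8% of genes that fell and 37.3% of all tested. For the X box core they were 3.68% of genes that rose, 4.20% of genes that fell and 4.51% of all tested. A match describes letters and not a bound site.

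Most red cell genes of the lists fell. Of 17 measured genes of the red cell membrane and blood groups, 16 fell and none rose, with a median log2 fold change of -4.56 against -0.11 over all genes. Aqp1, the water channel, had 293, 285 and 248 in +/+ against 11879, 18115 and 18512 in -/-, and was 51.8-fold lower (adjusted p = 6.1e-09). The 1 not called was Cd47, the signal against phagocytosis that most blood cells carry. It had 1960, 2197 and 3953 in +/+ and 3501, 3567 and 3619 in -/-, and the groups overlapped (adjusted p = 0.25). Of the 5 Cd47 probe sets 1 fell, by 1.53 on the log2 scale.

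All 11 measured genes of haem synthesis and its transport fell, with a median of -4.30. Alas2, the first enzyme of the pathway in erythroid cells, had 3591, 947 and 1047 in +/+ against 55319, 75489 and 53452 in -/-. It was 38.8-fold lower (log2 fold change -5.28, SE 0.49, adjusted p = 4.5e-06), and 59.1-fold without +/+ sample 1, which was the highest of the +/+ samples. The enzymes that follow fell too: Alad fell by 4.40, Urod fell by 4.30 and Cpox fell by 4.34 on the log2 scale, Uros by 2.60, Ppox by 3.23, and Fech, which inserts the iron, by 4.81. The mitochondrial transporters Abcb10 and Abcb6 fell by 4.35 and 3.27. Slc25a38, the importer of glycine, fell by 1.88, and Tmem14c, which moves the porphyrin precursor, by 3.46. Each of the 11 separated the groups without overlap.

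Of 18 genes of iron handling, 11 fell and 1 rose, with a median of -1.42. Slc25a37, the mitoferrin of erythroid cells, had 951, 727 and 678 in +/+ against 13102, 24176 and 19984 in -/-, and was 22.9-fold lower (adjusted p = 5.3e-08). Slc25a28, the mitoferrin of other cells, was the 1 that rose, with 1191, 1308 and 1596 in +/+ against 652, 438 and 333 in -/- (2.83-fold, adjusted p = 0.0030). The transferrin receptor Tfrc was 7.38-fold lower and the related sensor Tfr2 5.09-fold lower. Glrx5, a glutaredoxin of iron-sulphur cluster assembly, was 12.4-fold lower on chip B, where its signal was 9144 to 11590 in +/+ and 95413 to 186960 in -/-. Flvcr1, an exporter of haem, was not measured alike by its probe sets. It was lower on chip A, a call lost when any of 5 samples was left out, and 6.45-fold higher on chip B.

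Globin genes fell, but the brightest probe sets cannot be assigned to 1 gene. Each of 4 probe sets named for several adult alpha or beta globin genes fell, by 3.36 to 18.4-fold, with 660 to 76396 in +/+ and 22096 to 217720 in -/-. Of 6 globin and chaperone genes with a probe set of their own, 3 fell and none rose, with a median of -1.51. The count takes Hbb-b2, an adult beta globin gene, as not called on its plain _at probe set (log2 fold change 0.11, limma adjusted p = 0.89). A second probe set, named for Hbb-b2 alone, had 519, 365 and 284 in +/+ against 7680, 20493 and 13945 in -/-. That was a 31.8-fold fall (adjusted p = 4.4e-06). This second probe set has the suffix _x_at, and whether it also reads other beta globin genes was not tested. Hba-a2 had 175, 276 and 269 in +/+ against 943, 706 and 614 in -/-, a 2.90-fold fall (adjusted p = 0.0090). The embryonic gene Hbb-y was under 5 in every +/+ sample and at 99.4, 239 and 257 in -/-, at least a 1.65-fold fall.

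Regulators and stage markers of the lineage moved the same way. Of 19 erythroid transcription factors, 12 fell and 1 rose, with a median of -1.95. Klf1, the activator of red cell genes, had 237, 217 and 172 in +/+ against 7768, 11733 and 13775 in -/-, and was 45.3-fold lower (adjusted p = 1.9e-08). Gata1 was 22.1-fold lower, with 197 to 437 in +/+ and 5616 to 8840 in -/-, and Tal1, with which it forms a complex, 20.8-fold lower. Bcl11a, which represses embryonic and fetal globins and serves B cells, was 3.12-fold higher, with 1981, 2536 and 3138 in +/+ against 740, 985 and 658 in -/-. The count of rises was 2 without -/- sample 4. Of 19 genes of late remodelling 16 fell and none rose (median -2.42). Among them Trim10 was 55.1-fold lower, the ubiquitin ligase Mkrn1 15.99-fold and the ubiquitin-conjugating enzyme Ube2h 6.88-fold. Of 11 genes of the erythropoietin response 3 fell and none rose (median -0.35): the receptor Epor (4.77-fold), the survival gene Bcl2l1 (6.72-fold) and Tfrc.

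Of 14 antioxidant genes of the red cell, 10 fell and 1 rose, with a median of -1.77. Prdx2, the main peroxiredoxin of red cells, had 2956, 3480 and 3759 in +/+ against 64193, 82845 and 66804 in -/-, and was 20.8-fold lower (adjusted p = 5.2e-08). The biliverdin reductase Blvrb was 35.9-fold lower, the glyoxalase Hagh 15.5-fold, and Gclm, a chain of the glutathione-making ligase, 10.4-fold. Pgd, an enzyme of the pentose phosphate pathway that makes NADPH, rose 5.57-fold, with 4305, 3720 and 2122 in +/+ against 970, 502 and 348 in -/- (adjusted p = 0.0014).

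**Figure D3:**
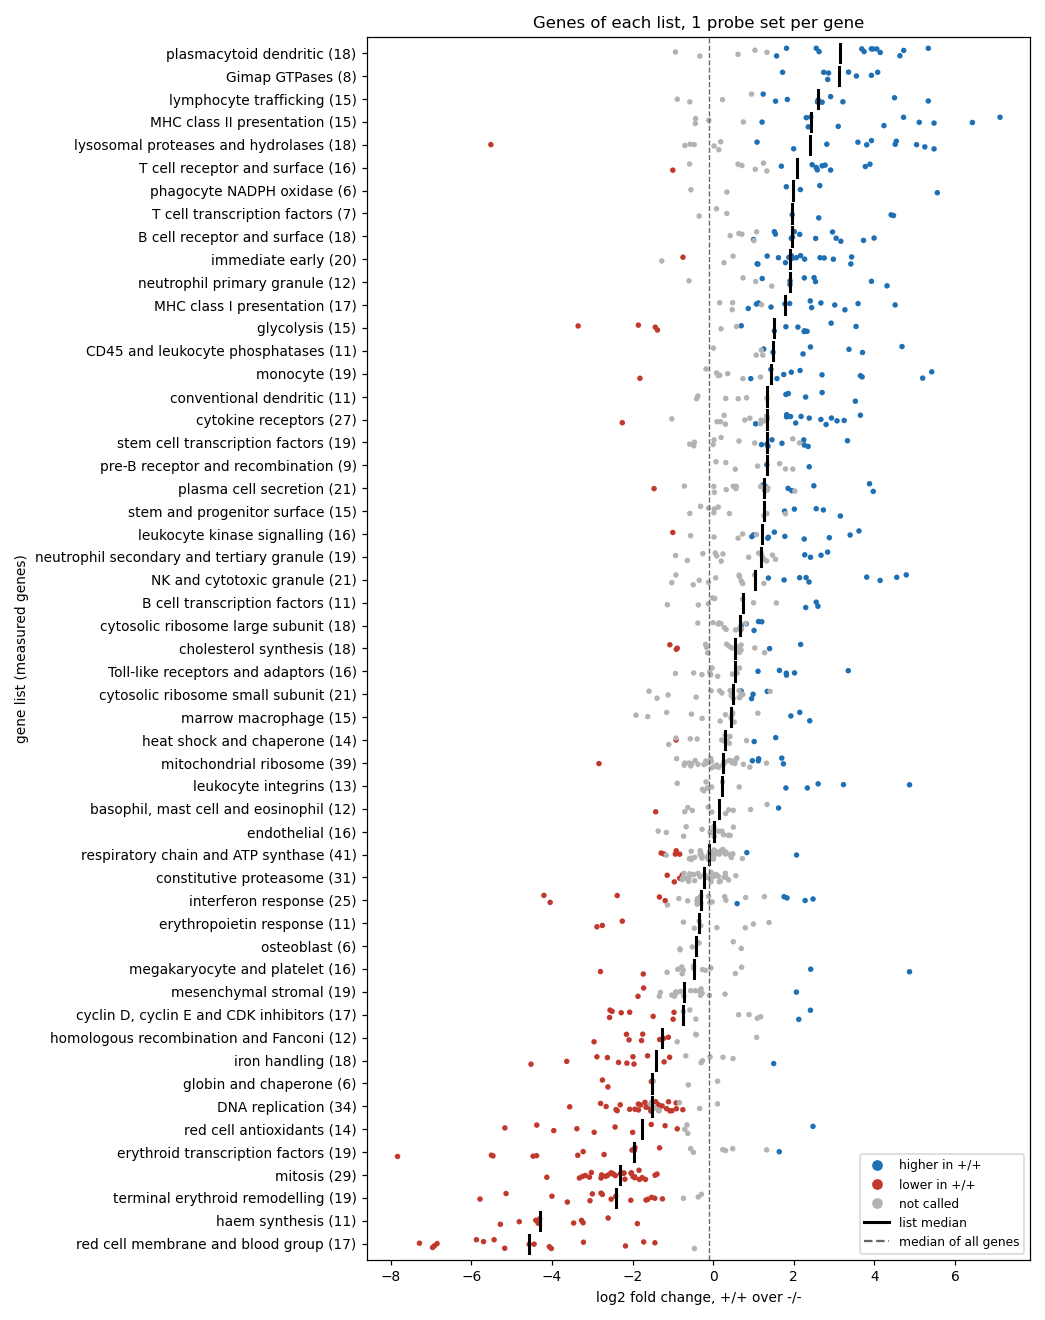
Log2 fold change of +/+ over -/- for each measured gene of every list, 1 point per gene, with the number measured in parentheses. Black bars are list medians and the dashed line is the median of all genes (-0.11). Lists of the red cell and of cell division lie to the left, and lists of white blood cells to the right. Gimap GTPases, mitosis, haem synthesis and class I presentation are among the lists that lie wholly on 1 side of 0.

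Genes of cell division were lower in +/+. All 29 measured genes of mitosis fell, with a median log2 fold change of -2.30. Mki67, the marker of cycling cells, had 2791, 2834 and 2027 in +/+ against 16811, 32329 and 30262 in -/-, and was 9.97-fold lower (log2 fold change -3.32, SE 0.30, adjusted p = 3.2e-06). No +/+ sample reached the lowest -/- sample, number 4. Ube2c, the ubiquitin-conjugating enzyme of the anaphase complex, was 17.5-fold lower. The spindle proteins Prc1 and Nusap1 were 8.99-fold and 8.39-fold lower. Of 34 genes of DNA replication 27 fell and none rose (median -1.52). Rrm2, a chain of ribonucleotide reductase, had 534, 794 and 518 in +/+ against 4641, 9004 and 9926 in -/-, and was 11.8-fold lower (adjusted p = 5.4e-06). Thymidine kinase Tk1 was 6.92-fold lower, the licensing factor Cdc6 6.30-fold and the licensing inhibitor geminin, Gmnn, 3.84-fold.

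Of 12 genes of homologous recombination and the Fanconi pathway 8 fell and none rose (median -1.28). Brca1 was 7.75-fold lower, the helicase Blm 4.44-fold, the recombinase partner Rad54l 3.42-fold and Brca2 3.36-fold. Of 17 cyclins D and E, their kinases' inhibitors and related genes, 8 fell and 2 rose (median -0.74). The inhibitors Cdkn2c and Cdkn2d were 5.94-fold and 5.89-fold lower, and the retinoblastoma gene Rb1 4.20-fold lower.

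The 3 D-type cyclins differed in direction. Ccnd1 had 1855, 2568 and 4007 in +/+ against 565, 743 and 252 in -/-, and was 5.33-fold higher (adjusted p = 0.00044). Ccnd2 had 1549, 1370 and 2261 in +/+ against 603, 401 and 191 in -/-, and was 4.36-fold higher (adjusted p = 0.00090). Ccnd3 had 1688, 2053 and 2219 in +/+ against 5341, 6035 and 5433 in -/-, and was 2.81-fold lower (adjusted p = 0.00033). None of the 3 had overlapping groups. On chip B 1 of 2 further Ccnd3 probe sets was higher and 1 lower. The list held 5 rises without -/- sample 4.

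Isozymes of glycolysis went both ways. Of 15 genes 9 rose and 4 fell, with a median of 1.52. The pairs below were chosen after their values were seen. Hexokinase 2, Hk2, had 1254, 1310 and 966 in +/+ against 430, 131 and 176 in -/-, and was 4.78-fold higher, while hexokinase 1, Hk1, had 1614, 1573 and 1208 in +/+ against 4283, 5793 and 6125 in -/-, and was 3.62-fold lower. Both pairs of groups were without overlap. The platelet-type phosphofructokinase Pfkp was 5.03-fold higher, and 8.12-fold without -/- sample 4, whereas the muscle-type Pfkm was 2.70-fold lower. Pkm, the pyruvate kinase of most tissues, had 1314, 1567 and 1940 in +/+ against 238, 67.0 and 67.8 in -/-, and was 11.7-fold higher (adjusted p = 2.3e-05). Pklr, the pyruvate kinase of liver and red cells, had 294, 223 and 214 in +/+ against 628, 843 and 593 in -/-, and was 2.60-fold lower (adjusted p = 0.013), a call lost without -/- sample 5 (adjusted p = 0.060). Bpgm, which makes the 2,3-bisphosphoglycerate that regulates haemoglobin, was 10.2-fold lower, and the aldolase Aldoa 4.81-fold higher.

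**Figure D4:**
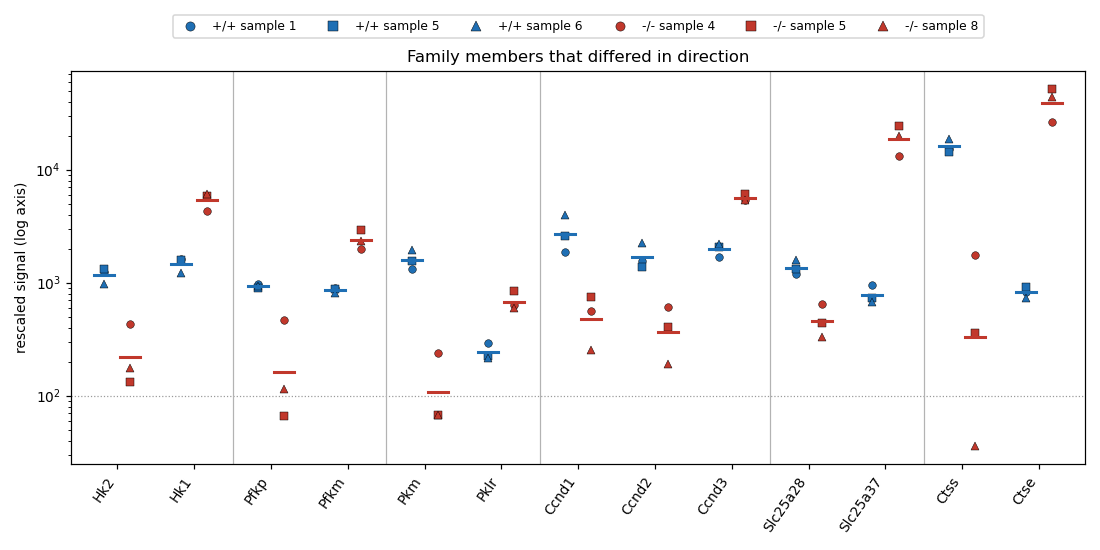
Rescaled signal on a log axis of members of 6 gene families that differed in direction, 1 point per sample, with +/+ samples left of -/- samples. Hk2, Pfkp, Pkm, Ccnd1, Ccnd2, Slc25a28 and Ctss lie higher in +/+, and Hk1, Pfkm, Pklr, Ccnd3, Slc25a37 and Ctse lower. The genes were chosen for their difference in direction, after their values were seen, so the absence of overlapping groups in the panel is no result.

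Most listed genes of antigen presentation rose. Of 15 genes of class II presentation 11 rose and none fell, with a median log2 fold change of 2.42. H2-Eb1, the beta chain of I-E, had 14638, 11091 and 18234 in +/+ against 704, 236 and 332 in -/-, and was 34.6-fold higher (adjusted p = 1.0e-06). Cd74, the invariant chain, was 18.9-fold higher, with 7795 to 11350 in +/+ and 325 to 930 in -/-. Of 17 genes of class I presentation 13 rose and none fell (median 1.78). H2-K1, a classical class I heavy chain, had 23267, 24725 and 39597 in +/+ against 7889, 2725 and 1944 in -/-, and was 8.09-fold higher (adjusted p = 0.00016). The immunoproteasome chains Psmb8 and Psmb10 were 22.9-fold and 9.64-fold higher. Without -/- sample 4 the fold was 12.2 for H2-K1 and 14.8 for Psmb10, and without -/- sample 8 it was 13.6 for Psmb8. No gene of the constitutive proteasome rose, and 4 of 31 fell (median -0.22), of which 2 were called without -/- sample 5 or without -/- sample 8.

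Most B cell surface genes of the list rose. Of 18 genes of the B cell receptor and surface 13 rose and none fell (median 1.95), and the count was 8 without +/+ sample 6 or without -/- sample 5. Ms4a1, which encodes CD20, had 6242, 5121 and 7229 in +/+ against 566, 289 and 271 in -/-, and was 15.9-fold higher (log2 fold change 3.99, SE 0.37, adjusted p = 4.8e-06). Cd22, an inhibitory lectin of B cells, had 11207, 8132 and 11543 in +/+ against 1133, 589 and 596 in -/-, and was 13.3-fold higher. Both separated the groups, with -/- sample 4 the highest of the -/- samples. The scaffold Bank1 was 8.99-fold higher, and Fcmr, the receptor for IgM, 8.29-fold.

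Of 11 B cell transcription factors 3 rose and none fell (median 0.73). They were Ikzf3, the zinc finger factor Aiolos (6.06-fold), Spib and Pou2af1. The count of rises was 5 without -/- sample 4, and 1 member was called lower without -/- sample 5. Pax5, which holds cells in the B lineage, had 143, 38.1 and 126 in +/+ and 279, 54.3 and 60.1 in -/- (adjusted p = 0.92). Ebf1, which starts the lineage, had 420, 324 and 345 in +/+ and 331, 117 and 108 in -/- (adjusted p = 0.085). The groups overlapped for both on these probe sets. Of the 5 Ebf1 probe sets 2 others were called higher, by up to 2.87 on the log2 scale, and neither of the 2 of Pax5 was called. Of 9 genes of the pre-B receptor and recombination 2 rose and none fell (median 1.33). They were Il7r, the interleukin-7 receptor (5.22-fold), and the surrogate light chain gene Igll1. The count was 1 without +/+ sample 5 or 6 or without -/- sample 5 or 8. The fold of Il7r was 9.97 without -/- sample 4 and 3.39 without -/- sample 8. Vpreb1, the other surrogate light chain, had 5387, 7952 and 2943 in +/+ and 9063, 2731 and 134 in -/-, with overlap (adjusted p = 0.25).

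Of 21 genes of plasma cells and secretion 9 rose and 1 fell (median 1.27). The fall, Ell2, lost its call without +/+ sample 5 or without -/- sample 5 or 8. Jchain, which joins secreted immunoglobulins, was 15.7-fold higher (adjusted p = 0.0017), and 6.56-fold without +/+ sample 1, 24.6-fold without +/+ sample 5 and 24.0-fold without +/+ sample 6. Txndc5, a disulphide isomerase of the secretory pathway, was 14.7-fold higher, with 2304, 3133 and 6664 in +/+ against 425, 141 and 164 in -/-. Mzb1, a chaperone of immunoglobulin secretion, was 5.65-fold higher, and 9.15-fold without -/- sample 4.

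Cd3d, Cd4 and Cd8a, defining genes of T cells, were near the floor in -/-. Of 16 genes of the T cell receptor and surface 9 rose and 1 fell (median 2.07). Cd3d, a chain of the receptor complex, had 969, 591 and 754 in +/+ against 14.8, 31.9 and 31.8 in -/-, and was at least 5.97-fold higher (adjusted p = 2.6e-05). Cd4 had 859, 1291 and 1514 in +/+ against 62.1, 34.2 and 57.8 in -/-, and was at least 9.25-fold higher. Cd8a was at least 4.51-fold higher on the 1 of its 5 probe sets that was called. All 3 were under 100 in every -/- sample on these probe sets. Zap70, the kinase that binds the activated receptor, was the 1 that fell, with 1263, 1517 and 1098 in +/+ against 2181, 2737 and 2927 in -/- (adjusted p = 0.0075). Thy1, an antigen of T cells and some stem cells, was 5.89-fold higher.

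Of 7 T cell transcription factors 4 rose and none fell (median 1.96). Satb1, a chromatin organiser, had 2305, 1929 and 1425 in +/+ against 223, 25.8 and 14.6 in -/-, and was 21.3-fold higher (adjusted p = 3.2e-05). Another of its 5 probe sets was not called. Ets1 was 22.2-fold higher (adjusted p = 0.0016), with 1882 to 4647 in +/+ and 16.5 to 1066 in -/-. The 1066 was in -/- sample 4, and the Ets1 fold was 13.7 without -/- sample 5 and 12.97 without -/- sample 8. Of 21 genes of natural killer cells and cytotoxic granules 9 rose and none fell (median 1.03). Klrd1, which encodes CD94, had 2250, 2197 and 1870 in +/+ against 96.5, 40.7 and 47.7 in -/-, and was at least 16.1-fold higher. The adaptor Tyrobp was 27.7-fold higher, the cathepsin Ctsw at least 6.73-fold and Nkg7 5.20-fold.

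Gimap genes, a cluster of GTPases of lymphocyte survival, all rose: 8 of 8, with a median of 3.11. Gimap8 had 6647, 5763 and 10761 in +/+ against 647, 431 and 346 in -/-, and was 15.2-fold higher (adjusted p = 3.5e-05). Gimap1 was 16.9-fold higher and Gimap4 6.69-fold. None of the 8 had overlapping groups. Of 15 genes of lymphocyte trafficking 11 rose and none fell (median 2.59), with 1 called lower when +/+ sample 1 was left out. Selplg, the ligand of P-selectin, had 8070, 11792 and 9586 in +/+ against 1219, 538 and 79.7 in -/-, and was 22.6-fold higher. Its fold was 38.5 without -/- sample 4 and 11.5 without -/- sample 8. The integrin chain Itgb7 was 6.08-fold higher and S1pr4, a sphingosine-1-phosphate receptor, 3.58-fold.

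Plasmacytoid dendritic cell genes had the highest list median. Of 18 genes 13 rose and none fell, with a median log2 fold change of 3.16. Tcf4, the factor that sets this lineage, had 2966, 4447 and 7259 in +/+ against 769, 77.4 and 41.2 in -/-, and was 24.8-fold higher (adjusted p = 0.00015), and 15.6-fold without -/- sample 8. Irf8, which serves dendritic cells and monocytes, had 5221, 9612 and 11074 in +/+ against 541, 185 and 211 in -/-, and was 26.5-fold higher (adjusted p = 1.4e-06). For both, and for Ccr9 above, +/+ sample 1 was the lowest of the +/+ samples. Cox6a2, a cytochrome oxidase chain, was 13.4-fold higher, and 8.76-fold without -/- sample 8. Of 11 genes of conventional dendritic cells 5 rose and none fell (median 1.33), among them Itgax, which encodes CD11c (3.49-fold).

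Granule genes of neutrophils were listed by stage. Of 12 primary granule genes 8 rose and none fell (median 1.91). Ctsc, which activates the granule proteases, was 15.2-fold higher, and 24.6-fold without -/- sample 4. Serpinb1a, which inhibits them, had 824, 637 and 1040 in +/+ and was under 20 in every -/- sample, at least a 6.44-fold rise. Srgn, the proteoglycan core of granules, was 5.67-fold higher. Prtn3, proteinase 3, was 5.82-fold higher (adjusted p = 0.0048), 10.3-fold without -/- sample 4 and 3.68-fold without -/- sample 8. Of 19 secondary and tertiary granule genes 4 rose and none fell (median 1.19), and 7 rose without -/- sample 4. Lyz2 was 4.83-fold higher, 7.68-fold without -/- sample 4 and 3.04-fold without -/- sample 8. The defining markers overlapped: Camp had 2452, 449 and 224 in +/+ and 1414, 46.9 and 75.2 in -/- (adjusted p = 0.31), and Ngp 13631, 1878 and 3559 in +/+ (adjusted p = 0.26). +/+ sample 1 and -/- sample 4 were the highest of their groups for both.

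Monocyte and phagocyte genes that passed the test mostly rose. Of 19 monocyte genes 11 rose and 1 fell (median 1.43). Csf1r, the receptor for the macrophage growth factor, had 15649, 8600 and 5855 in +/+ against 1462, 588 and 400 in -/-, and was 12.6-fold higher (adjusted p = 2.9e-05). Ly86, a partner of a Toll-like receptor homologue, was 36.7-fold higher, 66.5-fold without -/- sample 4 and 22.1-fold without -/- sample 5. The fall was Emilin2, an extracellular glycoprotein, at 3.52-fold. Of 6 genes of the NADPH oxidase 4 rose and none fell (median 1.99), with 1 called lower without +/+ sample 6. Besides Cyba, the GTPase Rac2 was 6.26-fold higher and the cytosolic chain Ncf4 4.48-fold, and 2.89-fold without -/- sample 5. Of 15 marrow macrophage genes 3 rose and none fell (median 0.44), with 1 called lower without +/+ sample 1. C1qa, a chain of complement C1q, had 477, 200 and 192 in +/+ and was under 100 in every -/- sample, at least a 2.26-fold rise. Of 16 Toll-like receptors and adaptors 6 rose and none fell (median 0.54), with Tlr1 at least 3.98-fold and Myd88 3.52-fold higher.

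Called lysosomal proteases and hydrolases rose, with 1 exception. Of 18 genes 11 rose and 1 fell (median 2.41). Hexa, the alpha chain of hexosaminidase, had 6062, 6148 and 6327 in +/+ against 407, 217 and 150 in -/-, and was 22.9-fold higher (adjusted p = 4.4e-07). The fall was Ctse, an aspartic cathepsin, with 825, 918 and 738 in +/+ against 26303, 51481 and 43989 in -/-. It was 45.7-fold lower (log2 fold change -5.51, SE 0.26, adjusted p = 9.0e-09), the opposite direction to Ctss, Ctsh and Ctsc.

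Stem and progenitor genes that passed the test were higher in +/+. Of 19 stem cell transcription factors 9 rose and none fell (median 1.33), with 1 called lower without -/- sample 4. Meis1, a homeobox partner of the Hox proteins, had 343, 443 and 314 in +/+ and was under 10 in every -/- sample, at least a 2.99-fold rise (adjusted p = 0.00020). Mycn was at least 2.96-fold higher. Each was called on 1 of 3 probe sets, and the lowest log2 fold change of the others was 0.36 for Meis1 and -1.06 for Mycn. Of 15 surface genes 5 rose and none fell (median 1.26), and 1 was called lower without +/+ sample 1. The median was 0.61 without -/- sample 4 and 0.68 without -/- sample 8. Cd34 had 522, 775 and 722 in +/+ against 56.7, 55.5 and 29.5 in -/-, and was at least 5.27-fold higher (adjusted p = 3.0e-05). Kit, the receptor for stem cell factor, had 607, 527 and 601 in +/+ and 343, 303 and 100 in -/-, which did not overlap but were not called (adjusted p = 0.059). Flt3 overlapped, with 693, 1284 and 1964 in +/+ and 148, 1176 and 515 in -/- (adjusted p = 0.096).

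Receptors and signalling proteins of leukocytes made up 4 lists. Of 27 cytokine receptors 13 rose and 1, Epor, fell (median 1.33). The receptor beta chain genes Csf2rb2 and Csf2rb were 9.52-fold and 8.42-fold higher. Of 16 kinase signalling genes 10 rose and 1, Zap70, fell (median 1.22), with 5 rises without +/+ sample 6 and 6 without -/- sample 5 or 8. The exchange factor Vav1 was at least 6.85-fold higher and the Src-family kinase Fyn 10.5-fold, with 1252, 2730 and 4248 in +/+ against 127, 310 and 206 in -/-. Of 11 phosphatases 7 rose and none fell (median 1.49). Besides Ptprc, Ptpn6, which encodes SHP-1, was 13.04-fold higher and Ptpn18 5.33-fold. Of 13 integrins 5 rose and none fell (median 0.23), with Itgb2 at 9.40-fold.

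Interferon response genes split evenly. Of 25 genes 5 rose and 5 fell, with a median of -0.30. Rsad2, the antiviral enzyme viperin, had 6154, 3684 and 4235 in +/+ against 74065, 96391 and 84690 in -/-, and was 18.3-fold lower (log2 fold change -4.20, SE 0.33, adjusted p = 1.1e-06). Isg20, an exonuclease, had 831, 908 and 748 in +/+ against 10236, 15095 and 18209 in -/-, and was 16.5-fold lower (adjusted p = 1.1e-07). Both were among the brighter genes of every -/- sample. Cmpk2, the kinase gene beside Rsad2, was 5.20-fold lower, and the RNA sensor Ifih1 2.28-fold. The synthetase Oas3 was 2.52-fold lower (adjusted p = 0.049). Those that rose were Ifit2 (5.57-fold), Ifit3 (4.86-fold), Mx1 (3.56-fold), Gbp3 (3.38-fold, adjusted p = 0.028) and Trim25 (1.51-fold, adjusted p = 0.048). Oas3 lost its call when any single sample was left out, Trim25 when any but +/+ sample 1 was, and Gbp3 without +/+ sample 1 or 6 or -/- sample 4. The count of rises was 3 without +/+ sample 6 or without -/- sample 4.

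Most immediate early genes rose. Of 20 genes 16 rose and 1 fell, with a median of 1.91. Fos had 15848, 7740 and 6378 in +/+ against 2066, 577 and 457 in -/-, and was 10.8-fold higher (adjusted p = 0.00011), and 16.9-fold without -/- sample 4. Atf3 was at least 6.61-fold higher, the nuclear receptor Nr4a1 7.90-fold and Klf6 6.28-fold. +/+ sample 1 was the highest of the +/+ samples for Fos, Atf3 and Klf6. The fall was the antiproliferative gene Btg2 (1.68-fold, adjusted p = 0.036), called in neither direction without +/+ sample 5 or 6 or without -/- sample 5 or 8. Whether time or handling during the sort differed between the groups was not tested. Of 14 heat shock and chaperone genes 2 rose and 1 fell (median 0.30). The rises numbered 1 without +/+ sample 5 or 6 or -/- sample 8, and the fall was lost without +/+ sample 5 or 6 or -/- sample 5 or 8. The median was -0.25 without +/+ sample 1.

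Housekeeping machinery made up 5 lists. Of 18 proteins of the large cytosolic ribosomal subunit 6 rose and none fell (median 0.66), with 2 rises without +/+ sample 1 or 5 or -/- sample 8 and 1 without -/- sample 5. Of 21 of the small subunit 4 rose and none fell (median 0.50), with 2 rises without +/+ sample 5 or -/- sample 5 or 8, and 1 called lower without +/+ sample 6. Of 39 mitochondrial ribosomal proteins 5 rose and 1 fell (median 0.24). Of 41 genes of the respiratory chain 2 rose and 5 fell (median -0.09). Rises on the mitochondrial ribosome list numbered 10 without -/- sample 4, 3 without +/+ sample 6 and 2 without -/- sample 5. Rises on the respiratory chain list numbered 1 without +/+ sample 1, 5 or 6 or -/- sample 5. Of 18 genes of cholesterol synthesis 2 rose and 3 fell (median 0.54), with 4 rises without +/+ sample 1 and 1 without +/+ sample 5. The cholesterol falls were 0 without +/+ sample 1 or 5 or -/- sample 8.

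Among lists of other marrow cells, the endothelial and osteoblast lists held no calls. The rest had shares near those of genes in no list, 10.1% higher and 8.43% lower. These shares were 12.5% and 12.5% for megakaryocytes, 5.26% and 10.5% for stroma, and 8.33% and 8.33% for basophils, mast cells and eosinophils. Of 16 endothelial genes limma called none (median 0.02), 3 had an unadjusted p under 0.05, and 1 was called lower without -/- sample 4. Of 6 osteoblast genes limma called none (median -0.43), and 0 had an unadjusted p under 0.05. Of 19 mesenchymal stromal genes 1 rose and 2 fell (median -0.73), of 16 megakaryocyte and platelet genes 2 rose and 2 fell (median -0.49), and of 12 genes of basophils, mast cells and eosinophils 1 rose and 1 fell (median 0.14). These counts moved by 1 or 2 with single samples. The stromal rise was lost without +/+ sample 1 or -/- sample 5, and its falls numbered 1 without +/+ sample 5 or -/- sample 5 and 0 without +/+ sample 6 or -/- sample 8. The megakaryocyte falls numbered 1 without +/+ sample 1, 5 or 6 or -/- sample 5 or 8. The basophil rise was lost without +/+ sample 1 or 5 or -/- sample 4, and its fall without +/+ sample 5 or 6 or -/- sample 5 or 8.

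The defining markers were summed for each cell type and sample. The 4 measured erythroid markers summed to 1483 to 4271 in +/+ and 100330 to 148600 in -/-, and all 4 fell. Epb42, a protein of the red cell skeleton, was under 100 in every +/+ sample. The 5 T cell markers summed to 3692 to 4596 in +/+ and 276 to 357 in -/-, and all 5 rose. The 4 monocyte markers summed to 17720 to 25133 in +/+ and 987 to 3466 in -/-, with 3 higher, and the 3 plasmacytoid dendritic markers to 7638 to 20289 in +/+ and 876 to 1604 in -/-, all higher. The 4 B cell markers summed to 13454 to 18050 in +/+ and 756 to 6605 in -/-, with 3 higher. Here -/- sample 4 had the highest sum of the -/- samples. The NK cell, plasma cell, macrophage, stem cell, and mast cell and basophil sums were also higher in +/+ without overlap. Higher calls numbered 2 each among the 4 NK cell, 4 plasma cell and 5 stem cell markers. They numbered 1 each among the macrophage markers and among the mast cell and basophil markers. The 7 neutrophil markers overlapped, with 6135 to 29783 in +/+ and 1528 to 18782 in -/-, and 2 were higher. The endothelial sums were 355 to 448 in +/+ and 215 to 527 in -/-, and the osteoblast sums 523 to 694 in +/+ and 689 to 1136 in -/-. The part of these cells in any single gene's difference was not tested.

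**Figure D5:**
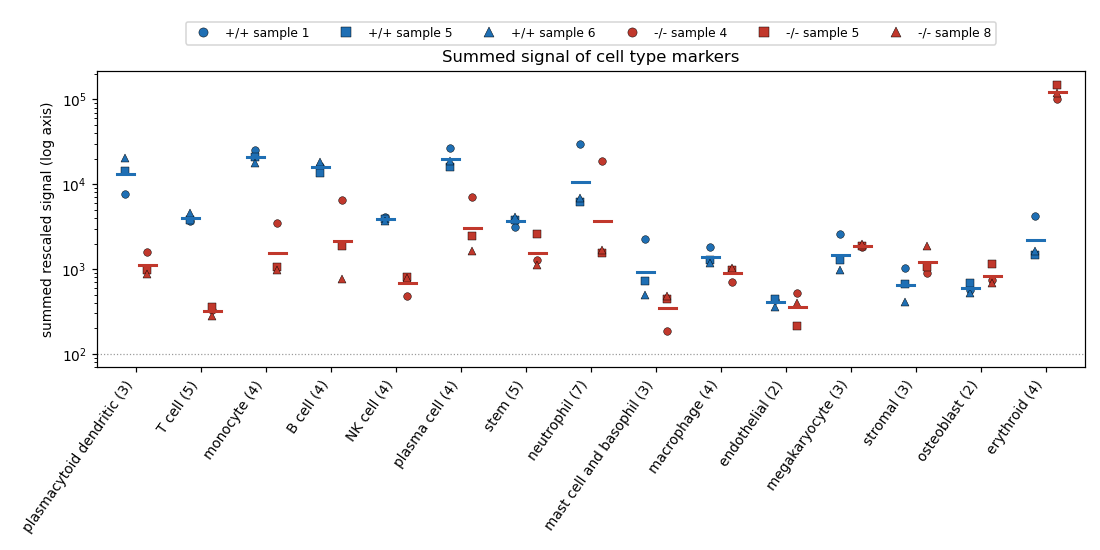
Summed rescaled signal on a log axis of the defining markers of 15 cell types, 1 point per sample, with +/+ samples left of -/- samples and the number of markers measured in parentheses. The erythroid sums are 4271 or less in the +/+ samples and 100330 or more in the -/- samples. The T cell, B cell, NK cell, plasma cell, plasmacytoid dendritic and monocyte sums lie higher in +/+ without overlap. So do the macrophage, stem cell, and mast cell and basophil sums, by less. The neutrophil, megakaryocyte, endothelial, stromal and osteoblast sums overlap.

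The chips were compared where they held the same probe sets and where they measured a gene by different ones. The 100 probe sets present on both chips had the same sign on 83 occasions, and 14 were called on both, all in the same direction, 14 on chip A alone and 2 on chip B alone. For 3284 genes measured by different probe sets on the chips, 62.2% had the same sign. Of these 184 were called on both, 180 in the same direction, while 616 were called on chip A alone and 257 on chip B alone. The 4 called in opposite directions were Fbxl20, Flvcr1, Kcnj11 and Sh3pxd2a. Among called genes named here 97 had several probe sets: all were called in 1 direction for 52, some were not called for 43, and Ccnd3 and Flvcr1 were called in both. A minority of the probe sets was called for Brca1, Ube2h, Ctsc, Ikzf3, Pfkp, Zap70 and Ccr9, besides those given above.

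Arrays fell into runs that split the groups unevenly. These wash runs were inferred here from the hybridize date and time of the run records. A gap of over 30 minutes between arrays of a chip was taken to start another run. On chip A, +/+ samples 1 and 5 shared a wash run with all 3 -/- samples and +/+ sample 6 was in another, and within the shared run 3269 probe sets were called, 1696 higher and 1573 lower. On chip B +/+ sample 1 alone shared a run and station with the -/- samples, so that 1 sample is assumed there to vary like the -/- samples. The 49 called were 15 higher and 34 lower. The block was the run alone on chip A, and run and station on chip B. Station was thus not adjusted for on chip A, where -/- sample 4 was at station 1 and the rest of the shared run at station 2. With these blocks, 6 of the 155 called probe sets of chip A named here and 7 of 32 of chip B lost their call. They were Pklr (adjusted p = 0.050), Oas3 (0.12), Gbp3 (0.073), Trim25 (0.11), Btg2 (0.096) and Flvcr1 (0.12) on chip A. On chip B they were Apol11b (0.18), Add2 (0.067), Fhdc1 (0.057), Lmna (0.076), Emilin2 (0.19), Mzb1 (0.15) and Flvcr1 (0.15).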

How the data were processed

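For 11 RNA samples, gene expression was read from an Affymetrix MOE430A and an MOE430B array each. The authors deposited a linear signal intensity per probe set, made with MAS5 per the submitters' processing notes (version not given in the sources used here), and its trimmed mean was the same on every array. The other files are run records, from which the wash run was inferred by time and the station was read. Here the signals of an array were multiplied by 1 factor to bring the trimmed mean to 500 (2% removed at each end), and log2(signal + 32) was taken. Control probe sets were left out, and a probe set needed more than 100 on 2 or more arrays of its chip. Of 22626 probe sets of chip A 3449, and of 22511 of chip B 1183, fell below this filter. No detection calls were used. Gene names came from the platform tables.

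The 9 OGCsort samples of a chip were fitted in R 4.3.3 with limma 3.58.1 (lmFit, eBayes with a trend), contrast +/+ minus -/-, with Benjamini-Hochberg adjustment within the chip and a threshold of 0.05. Of several probe sets of a gene, 1 was used: those of chip A were preferred, then those with a plain _at suffix, then the brightest. Where all arrays of the lower group were under 100, the fold is a lower bound, taken against 100. Named genes are Ptprc, the 12 largest rises and 12 largest falls of each chip with 1 gene name, an adjusted p under 0.05 and no overlap, in every list the 4 genes of lowest adjusted p, members of lists of 12 or fewer, defining markers, and members behind counts of 5 or fewer. Not all are printed, and others are named as chosen after their values were seen or as further probe sets of a named gene. The samples, markers and 53 lists were chosen with earlier results of these data known. The lists hold 987 genes: 873 were measured, 13 were below the filter and 101 had no probe set of their own, and 40 genes are in more than 1 list. The script was tested on simulated data with 50 changed probe sets per fold, where 5 unchanged probe sets were called on chip A and 2 on chip B. The only sort number shared by the groups is 5, so numbers do not pair the samples. The sort number entered as a random block in an alternative.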

Additional observations from a re-analysis of the deposited data

How the results depend on the processing

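No probe set called on either chip changed sign under any alternative: pseudocount, filter, quantile normalization, equal medians, array weights, eBayes robust or without a trend, sample sets, adjustment over both chips, batch and sort number blocks, and each sample left out. Chip A had 3584 to 6141 calls, among them 3460 to 4918 of its 4930. Chip B had 1253 calls without a trend (759 higher) and 418 with wash run and station as a block (238 higher, 180 lower). Leaving out 1 sample gave 1144 to 2077 calls there, 723 to 1356 higher and 421 to 721 lower, and 3584 to 5171 on chip A. The replicate block on sort number, which the labels do not tie to an animal, gave 6125 calls on chip A and 2184 on chip B. Equal medians moved the median log2 fold change of chip B to -0.03, against -0.14, and the rises to 70.4% of calls, against 63.0%. The uncalled log2 fold change of Pax5 turned to 0.30 without +/+ sample 5 and ranged from -0.44 to 0.48 over single samples left out, the highest without -/- sample 4. That of H2-DMb2 on chip A turned to 0.0059 with the run as a block and without +/+ sample 6, and was -0.76 at lowest without +/+ sample 1. Of 187 called probe sets named, 28 moved by over 1.5 times and 6 lost their call with a sample left out. A fold that became a lower bound with the sample left out was not counted as a move. Few arrays limit the precision; causes were not tested.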
